A study of Xenopus laevis with 6 samples.

Results

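The genes described here encode ATP-dependent chromatin remodelers and the core of Polycomb repressive complex 1, with the heterochromatin and ARID proteins that carry related names. They were chosen by symbol, with earlier results of these data known, after removal of the homeolog suffix L or S. Names had to begin with smarca to smarce, arid, chd, cbx, pcgf, phc or mta and a digit, or with ino80, or to be bmi1, ring1, rnf2 or hells. This gave 90 of the 49281 genes in the deposited table, under 53 symbols, of which 37 were present as both the L and the S homeolog of this allotetraploid frog. The values come from bulk RNA sequencing of wild type Xenopus laevis animal pole explants at stage 17, in 3 libraries per group. The treated explants received K02288, which blocks BMP type I receptors, and CHIR99021, which blocks the kinase GSK3 and so turns on canonical Wnt signalling, from stage 9 to 17, and are labelled neural crest-reprogrammed. The control explants received DMSO over the same stages and are labelled epidermal. Both compounds were always given together, so that their separate contributions cannot be told apart, and the labels name no clutches or explant numbers, so that p-values rest on the spread among libraries, possibly a technical one.

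Chromatin remodelers use the energy of ATP to slide, eject or exchange nucleosomes. The BAF (SWI/SNF) family opens regulatory DNA, and its alternative ATPases smarca4 and smarca2 and alternative accessory subunits are exchanged between cell types; in mouse, pluripotent cells use an assembly built on Smarca4, Smarcc1 and Smarcd1, and in human and frog neural crest the CHD family member CHD7 works with PBAF, the BAF form that contains ARID2. Polycomb complex 1 ubiquitinates histone H2A through ring1 or rnf2 and holds developmental genes silent, and its pcgf subunit and its chromodomain (cbx) or other partners define the variant forms.

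Gene reads per library numbered 35187635 to 36618892 in K02288/CHIR and 33706389 to 43155031 in DMSO. Summed over the neural crest marker list of 22 homeologs, treated libraries held 114617 to 132783 normalized counts and DMSO libraries 2437 to 3079, with foxd3.S and both sox10 homeologs at 0 in DMSO. Of 16 epidermal homeologs 12 were lower, summing to 221127 to 555562 normalized counts in treated and 1295146 to 1710548 in DMSO libraries. Multiciliated cell markers summed to 805 to 3082 in treated and 51884 to 59941 in DMSO libraries. Ionocyte markers summed to 233 to 1247 in treated and 36135 to 48707 in DMSO libraries, and those of goblet and small secretory cells to 1867 to 89489 in treated and 424843 to 469057 in DMSO libraries. Of 7 tested goblet and small secretory cell homeologs 5 were lower and 1 was higher, with log2 folds from -6.58 to 3.40. K02288/CHIR library a had the highest treated sum of these last 4 lists and the lowest of the neural crest and neural plate lists. Neural plate markers summed to 16461 in K02288/CHIR a, 30151 in b and 25321 in c, and to 1168 to 1326 in DMSO libraries. Of 12 tested neural plate homeologs 8 were higher and 0 lower, with log2 folds from -1.08 to 10.2. Mesoderm markers summed to 223 to 331 in treated and 34.6 to 686 in DMSO libraries, with 5 of 15 homeologs at 0 in the treated and 1 in the DMSO group. Of 4 tested mesoderm homeologs 1 was higher and 1 lower, with log2 folds from -4.22 to 3.27. In bulk RNA, fewer cells of a type and less RNA per cell cannot be told apart.

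More of these chromatin genes were higher than lower in K02288/CHIR explants. Tested were the 83 members with a mean of at least 10 normalized counts over the 6 libraries, where a normalized count is a read count divided by the library's size factor. With limma on log2(normalized count + 1) and an adjusted p under 0.05 over all genes, 49 members changed, 39 of them higher and 10 lower. Over all 22932 genes tested, 55.8% changed, 26.1% being higher and 29.7% lower. Against these shares, 47.0% of the tested members were higher and 12% lower. Their median log2 fold was 0.48, beside 0.0051 for all tested genes. The 3 libraries of each group did not overlap for 57 members, 46 higher and 11 lower, where 64.9% of all tested genes did not overlap, 31.2% higher and 33.6% lower. The limma fit used no pairing of libraries by replicate letter. With the letters as a block, it called 42 members higher and 11 lower, and 6522 higher and 7276 lower of all 22932 genes. Without K02288/CHIR library a, limma called 39 members higher and 12 lower, and 5949 higher and 7029 lower of all 22930 genes tested. A fold of at least 2 was fitted for 23 of the higher and all 10 of the lower members, a rule met by 15.9% (higher) and 24.4% (lower) of all tested genes.

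**Figure D1:**
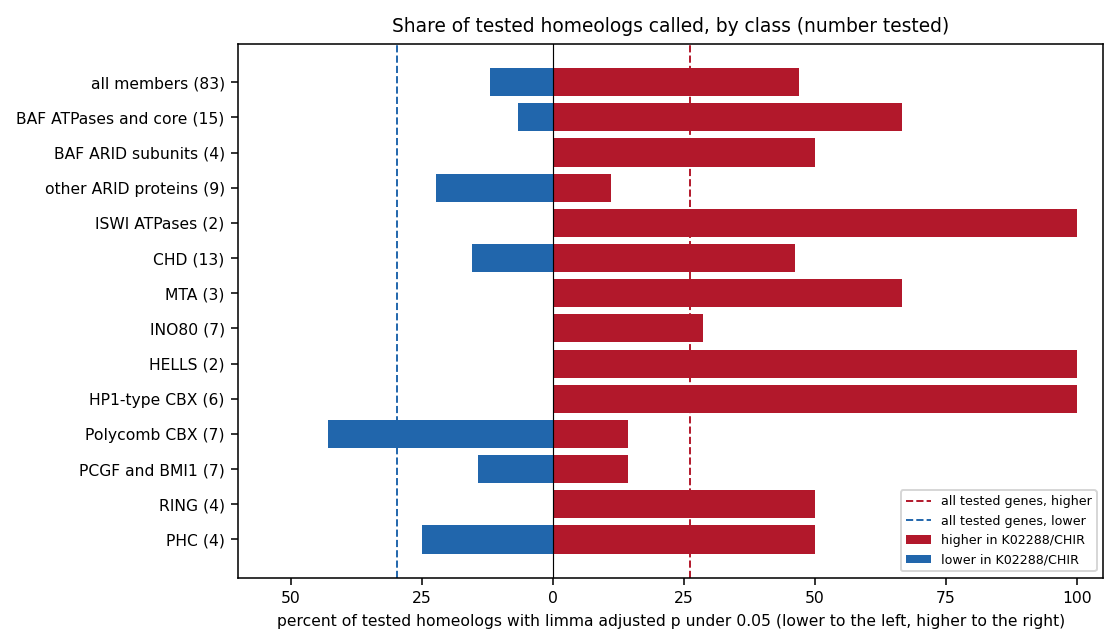
Percent of tested homeologs with a limma adjusted p under 0.05 in each class, higher in K02288/CHIR to the right and lower to the left, with dashed lines at the shares over all 22932 tested genes (26.1% higher, 29.7% lower). Of the 83 members 39 were higher and 10 lower, and every tested homeolog of the ISWI, hells and HP1-type classes was higher.

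The BAF core was mostly higher, with the ATPase smarca2 as its exception. Of 15 homeologs 10 rose, smarca2.L fell and 4 did not pass, with a class median log2 fold of 0.85. Thus 66.7% were higher and 6.7% lower, beside 26.1% and 29.7% over all tested genes. The ATPase gene smarca4.L had 989.5, 900.0 and 858 normalized counts in K02288/CHIR, against 332, 380.1 and 348 in DMSO, each time in the order of libraries a, b and c. For smarca4.S the counts were 14571, 16225 and 12142 in K02288/CHIR and 7535, 4149 and 6227 in DMSO. Every treated library lay above every DMSO library for both homeologs, and the log2 folds (± SE) were 1.37 ± 0.15 for L (limma adjusted p = 0.000426) and 1.29 ± 0.23 for S (0.00336). The alternative ATPase smarca2.L moved the other way, with 750.1, 559 and 583 counts in K02288/CHIR, against 2007, 1861 and 1767 in DMSO. The treated libraries were all lower, at a log2 fold of -1.58 ± 0.16 (adjusted p = 0.000337).

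Among the scaffold and accessory subunits, smarce1.L, an HMG-domain DNA-binding subunit, reached 15768, 22819.7 and 19983 counts in K02288/CHIR, against 7928, 8865 and 8755 in DMSO, and smarce1.S 17203, 20590.2 and 20124 in K02288/CHIR, against 10895, 10062 and 11009.8 in DMSO. smarcc1, a scaffold subunit, had 6112, 6019.7 and 5412 counts of its S homeolog in K02288/CHIR, against 2571, 1480.1 and 1926 in DMSO. None of these groups overlapped, and the log2 folds were 1.18 ± 0.16, 0.85 ± 0.12 and 1.59 ± 0.21 (adjusted p = 0.000941, 0.00107 and 0.000864); smarcc1.L rose by 0.92 ± 0.14. smarcd1, which links BAF to transcription factors, had 5959, 6176 and 7723 counts of L in K02288/CHIR, against 2787, 2100.5 and 3483 in DMSO, with log2 folds of 1.27 ± 0.21 for L and 0.79 ± 0.13 for S; the S counts were 3583, 4184 and 3347 in K02288/CHIR, against 2213, 1942 and 2237 in DMSO. Its alternative smarcd3.S, a subunit known from heart and neural BAF forms, had 1265, 960.5 and 912 in K02288/CHIR, against 1187, 1183 and 1077 in DMSO, which overlapped (log2 fold -0.15 ± 0.16, adjusted p = 0.468, 95% interval -0.54 to 0.24). Rows provisionally named smarcd3 are described further on. smarcb1.S, a core subunit, was higher at 0.53 ± 0.15 (adjusted p = 0.0237), a call lost without K02288/CHIR library b (0.0736) or c (0.0793) or DMSO library a (0.0727) or b (0.0548). The log2 fold was 1.69 ± 0.26 for smarcc2.S, which passed, and -0.15, -0.070 and 0.37 for smarcb1.L, smarcc2.L and smarcd2.L, which did not.

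The ARID subunits direct BAF to its forms, arid1a and arid1b to canonical BAF and arid2 to PBAF. arid2.S rose to 6023, 6064 and 5628 counts in K02288/CHIR libraries, against 1917, 1718 and 1348 in DMSO, and arid2.L to 3651, 4126 and 3397 in K02288/CHIR, against 2245, 1825 and 1803 in DMSO. The groups were apart for both, at log2 folds of 1.84 ± 0.15 (adjusted p = 0.000196) and 0.93 ± 0.14 (0.00165). arid1b.L had 418, 284 and 328 counts in K02288/CHIR, against 305, 202 and 235 in DMSO, and arid1b.S 160.2, 132 and 95.4 in K02288/CHIR, against 91.8, 125 and 97.6 in DMSO. Treated and control libraries overlapped for both arid1b homeologs, with 95% intervals of the log2 fold of -0.10 to 1.05 for L and -0.40 to 0.96 for S (adjusted p = 0.133 and 0.442). arid1a stands in the table only under a pair of provisional names, described further on.

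**Figure D2:**
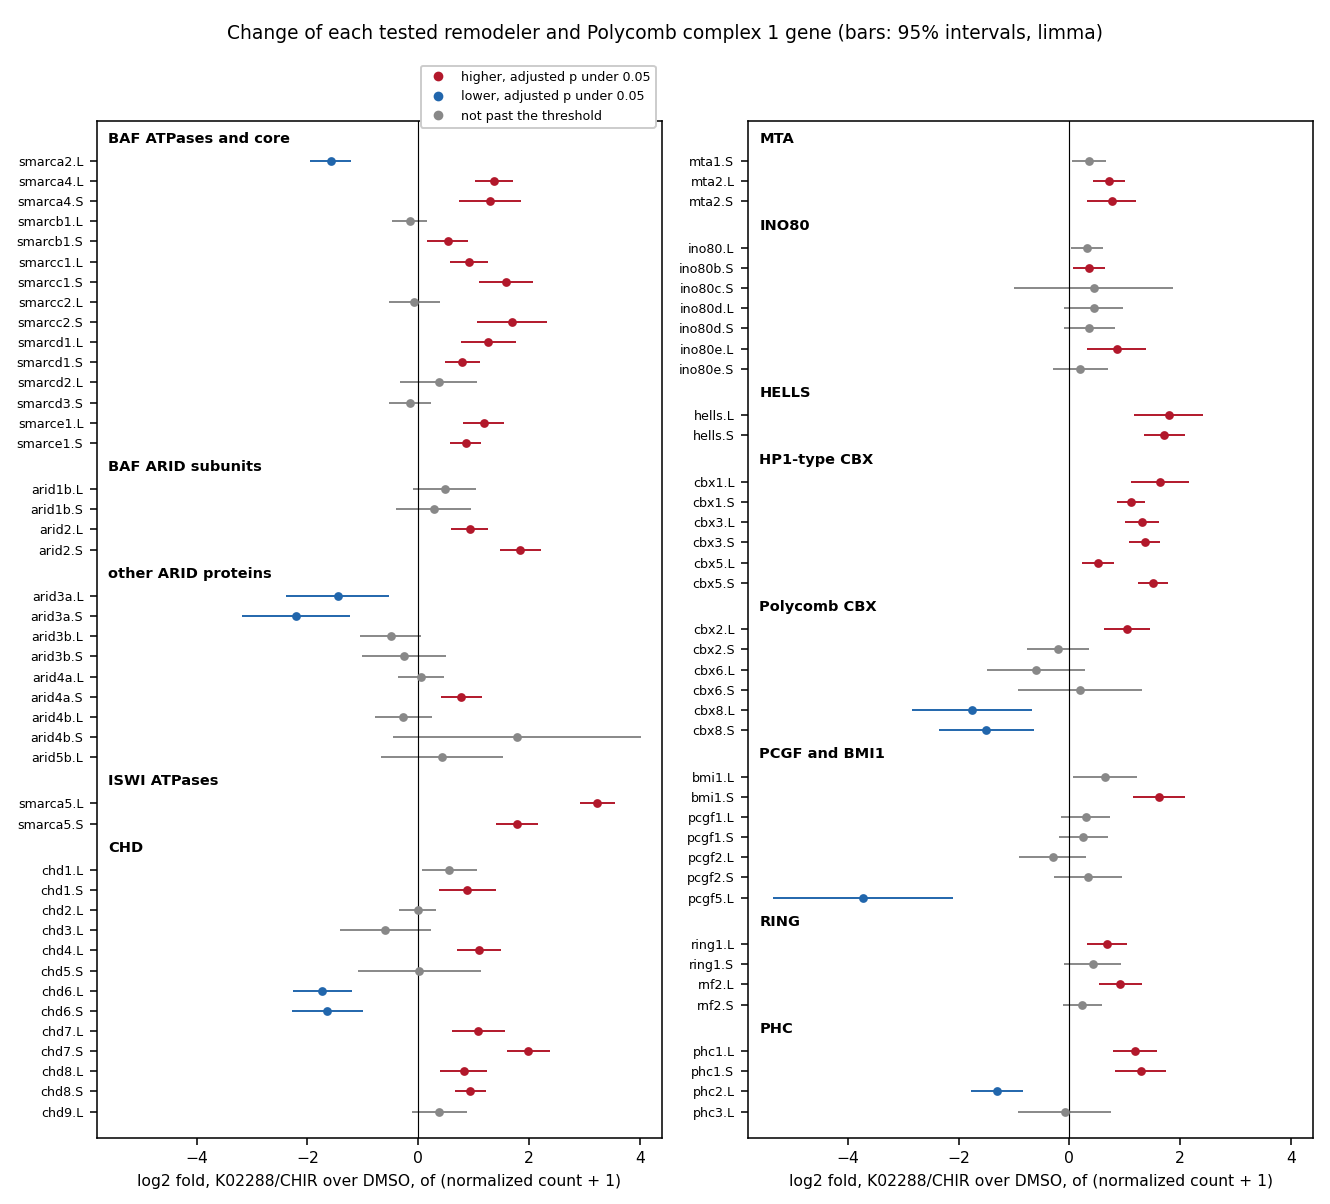
Log2 fold of K02288/CHIR over DMSO for 82 of the 83 tested homeologs, ordered by class, with 95% intervals from limma; red marks higher and blue lower members with an adjusted p under 0.05. smarca5.L lies farthest to the right of those shown at 3.23 and pcgf5.L farthest to the left at -3.72.

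The largest rise of all members was that of smarca5, the ISWI ATPase, which spaces nucleosomes behind replication and transcription. smarca5.L had 7518, 7769.9 and 9061 counts in K02288/CHIR, against 944, 784 and 856 in DMSO. smarca5.S had 3319, 3664 and 4355 in K02288/CHIR, against 1264, 1011 and 1004 in DMSO. Treated libraries were far above controls in all 3 for each homeolog, and the log2 folds were 3.23 ± 0.13 (adjusted p = 6.1e-05) and 1.79 ± 0.16 (0.000237). The other ISWI ATPase gene, smarca1.L, lay under the mean filter with 1.88, 0.889 and 3.81 counts in K02288/CHIR and 5.51, 4.14 and 9.88 in DMSO, and was not tested.

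In the CHD family, 6 of 13 tested homeologs rose (46.2%) and 2 fell (15.4%), with a median log2 fold of 0.56. Over all tested genes 26.1% were higher and 29.7% lower. The share called in either direction, 61.5%, lay near the 55.8% of all tested genes. chd7.S had 7303, 6223 and 7853 counts in K02288/CHIR, against 2153, 1573 and 1682 in DMSO, and chd7.L 2976, 1900.5 and 2573 in K02288/CHIR, against 1360.1, 1026 and 1099 in DMSO. All treated libraries exceeded all controls, with log2 folds of 1.99 ± 0.16 (adjusted p = 0.000183) and 1.08 ± 0.20 (0.00392). chd4.L, the ATPase of the NuRD deacetylase complex, had 23458, 34078 and 25534 counts in K02288/CHIR, against 13623, 13400.5 and 11555 in DMSO, a log2 fold of 1.09 ± 0.17 (adjusted p = 0.00164). A row provisionally named chd4 did not pass and is described further on, with rows provisionally named chd3. chd8, a relative of chd7 known as a negative regulator of beta-catenin targets, rose by 0.94 ± 0.12 for S (4638, 4268 and 3989 in K02288/CHIR, against 2289.5, 2339 and 2086 in DMSO) and by 0.82 ± 0.18 for L.

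chd6, a further relative of chd7, went the opposite way. chd6.L had 302, 185 and 207 counts in K02288/CHIR, against 842, 719.8 and 700.3 in DMSO, and chd6.S 431, 225 and 264 in K02288/CHIR, against 1038, 966 and 781 in DMSO. Both sets of treated libraries were below all controls, with K02288/CHIR library a the highest of the treated in each, and the log2 folds were -1.73 ± 0.22 (adjusted p = 0.000888) and -1.64 ± 0.27 (0.00223). Epidermal, multiciliated, ionocyte and goblet cell marker sums were also highest in library a among treated libraries; their part in this result was not tested. chd1.S, which acts at transcribed genes, rose by 0.88 ± 0.22 (adjusted p = 0.0118), while chd1.L at 0.56 ± 0.21 missed the threshold (0.055) and passed with replicate letters as a block (0.00938), without DMSO library a (0.0183) and under upper quartile scaling (0.0123). The others not past the threshold were chd2.L, chd3.L, chd5.S and chd9.L, at log2 folds of -0.011, -0.60, 0.022 and 0.38; chd3.L passed as lower without K02288/CHIR library a (adjusted p = 0.0283).

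The MTA scaffolds of NuRD rose for mta2, and mta1.S did not pass. A row provisionally named mta1 was higher and is described further on. mta2.L had 6926, 7524 and 7512 counts in K02288/CHIR, against 4860.1, 4573 and 3988 in DMSO, and mta2.S 2313, 2243 and 2106 in K02288/CHIR, against 1603, 1015 and 1373 in DMSO. The treated libraries were higher throughout, by log2 folds of 0.71 ± 0.12 (adjusted p = 0.00237) and 0.76 ± 0.18 (0.0113). mta1.S had 1244, 1210.4 and 1071 in K02288/CHIR, against 874, 906 and 963 in DMSO; these groups did not overlap, and its adjusted p of 0.0505 by limma stood beside 0.0498 by edgeR and 0.0338 by DESeq2.

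INO80 evicts and exchanges histone variants. Of 7 homeologs of the ATPase and its named subunits 2 were called, both higher, a share of 28.6% beside 26.1% over all genes. Groups did not overlap for 5 of the 7, all higher. Of all tested genes 64.9% did not overlap, 31.2% as higher. All 7 log2 folds lay between 0.19 and 0.85. ino80e.L had 427, 504 and 326 counts in K02288/CHIR, against 228, 199 and 262 in DMSO (log2 fold 0.85 ± 0.23, adjusted p = 0.0165; 0.0574 without DMSO library b). ino80b.S had 4145, 4347 and 3645 in K02288/CHIR, against 3383, 3209.8 and 2904 in DMSO (log2 fold 0.35 ± 0.12, adjusted p = 0.046), and this call was lost by edgeR (0.0549), without a filter on low values (0.0766) and without K02288/CHIR a (0.0823) or b (0.128) or DMSO a (0.0646), b (0.0983) or c (0.135).

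hells encodes LSH, a SNF2-type helicase needed for DNA methylation of repeats and abundant in dividing cells. hells.S had 2208, 2657 and 2731 counts in K02288/CHIR, against 803, 854 and 659.6 in DMSO, and hells.L 606, 591 and 662 in K02288/CHIR, against 244, 183 and 126 in DMSO. Both were higher in every treated library, at log2 folds of 1.71 ± 0.16 (adjusted p = 0.00026) and 1.79 ± 0.26 (0.00139). Proliferation markers differed between the same libraries, with sums of 128127 to 151771 normalized counts in K02288/CHIR and 78351 to 85300 in DMSO. Of their 32 homeologs 18 were higher and 4 lower, beside 26.1% higher and 29.7% lower over all tested genes. Among them mcm5.L and mcm2.L, of the replicative helicase, rose by 1.86 ± 0.13 and 1.65 ± 0.13, whereas cdk1.S and cdk1.L, the mitotic kinase, fell, at -0.89 ± 0.14 and -1.10 ± 0.24. Their part in the rises of the chromatin genes was not tested.

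**Figure D3:**
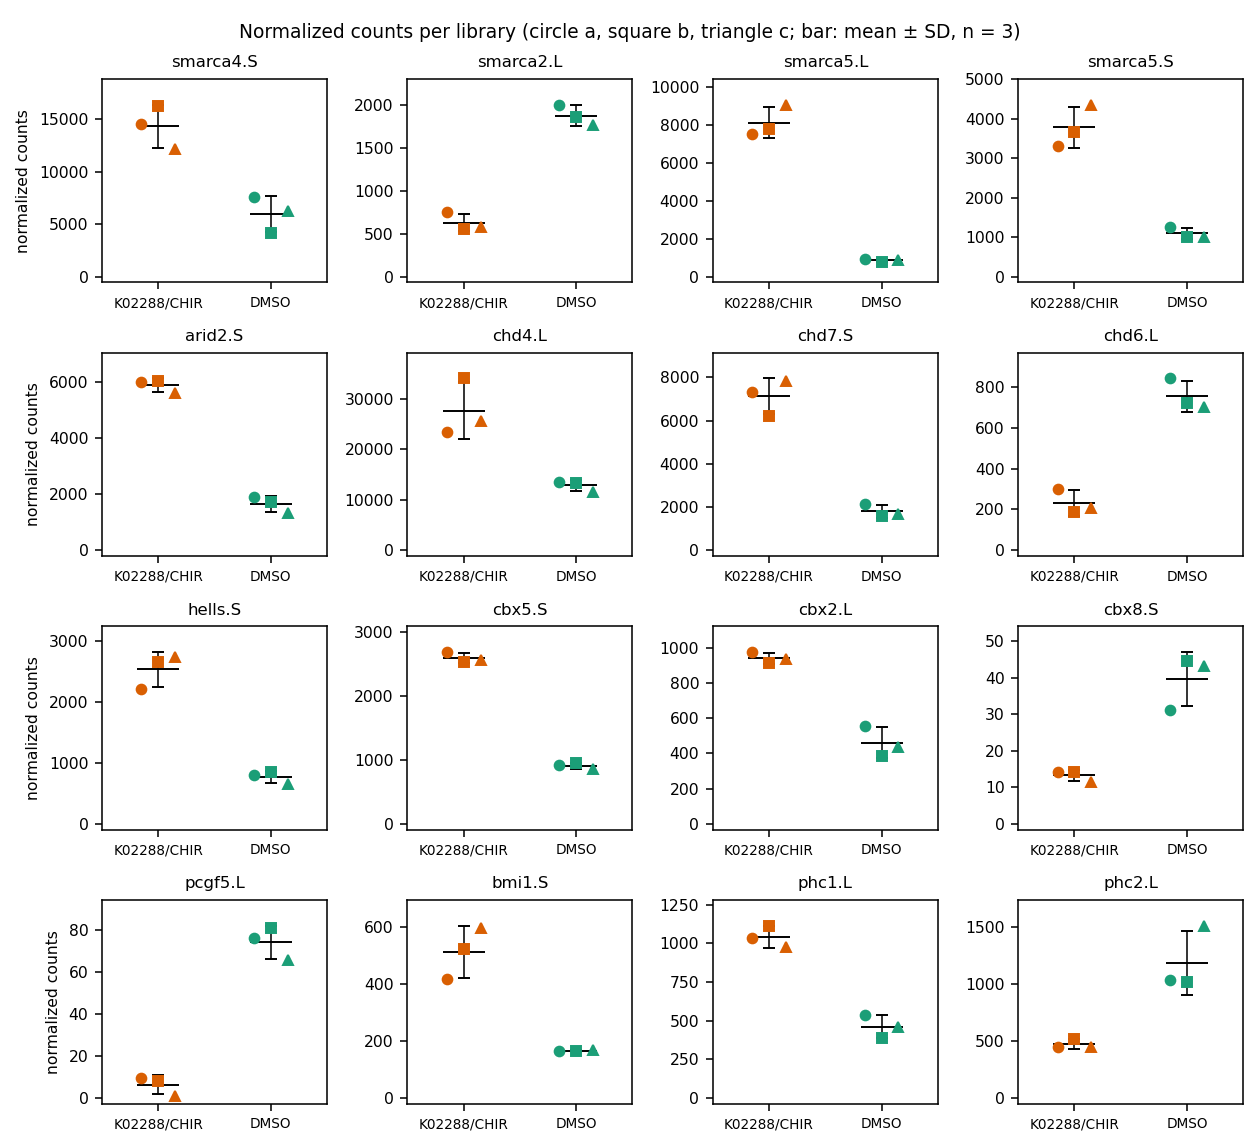
Normalized counts of 16 members in each library (circles a, squares b, triangles c) with mean ± SD (n = 3), K02288/CHIR on the left and DMSO on the right of each panel; axes start near 0. smarca4.S, smarca5, arid2.S, chd4.L, chd7.S, hells.S, cbx5.S, cbx2.L, bmi1.S and phc1.L lie higher in all treated libraries, while smarca2.L, chd6.L, cbx8.S, pcgf5.L and phc2.L lie lower in all of them.

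The HP1-type chromodomain genes cbx1, cbx3 and cbx5, whose products bind methylated histone H3 in heterochromatin, were higher for all 6 homeologs. Over all tested genes 26.1% were higher. These genes share the chromodomain with the Polycomb cbx genes and are counted apart from them here. cbx5.S had 2680.1, 2522 and 2561 counts in K02288/CHIR, against 914, 947 and 859.6 in DMSO. cbx3.S had 6129, 7315 and 7269.8 in K02288/CHIR, against 2571, 2772 and 2684 in DMSO, and cbx3.L 8243, 10088 and 10634 in K02288/CHIR, against 3674, 3905 and 4035 in DMSO. The counts of cbx1.S were 3477, 3756 and 3757 in K02288/CHIR, against 1677, 1636 and 1782 in DMSO. Groups were apart in each case, with log2 folds of 1.51 ± 0.11, 1.36 ± 0.12, 1.31 ± 0.13 and 1.11 ± 0.11 (adjusted p = 0.000153, 0.000222, 0.000342 and 0.000325). cbx1.L rose by 1.63 ± 0.22 and cbx5.L by 0.52 ± 0.12 (adjusted p = 0.00981).

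The Polycomb chromodomain genes, which tether canonical complex 1 to methylated histone H3, were split. cbx8.L had 11.3, 9.78 and 21.9 counts in K02288/CHIR, against 42.2, 38.3 and 67.9 in DMSO, and cbx8.S 14.1, 14.2 and 11.4 in K02288/CHIR, against 31.2, 44.5 and 43.2 in DMSO. Both cbx8 homeologs were low and lower in all treated libraries, at -1.76 ± 0.46 (adjusted p = 0.015; 0.0594 without DMSO library c) and -1.50 ± 0.36 (0.0115). cbx7.S, under the mean filter, had 0.942, 2.67 and 0.954 counts in K02288/CHIR and 18.4, 11.4 and 7.41 in DMSO. By contrast cbx2.L rose to 974, 912 and 934 in K02288/CHIR, against 557, 385 and 437 in DMSO, at 1.05 ± 0.18 (adjusted p = 0.00245), while cbx2.S with 164, 133 and 184 in K02288/CHIR and 219, 165 and 172 in DMSO overlapped (log2 fold -0.21 ± 0.24, adjusted p = 0.478). cbx6.L and cbx6.S did not pass, at -0.60 ± 0.37 and 0.19 ± 0.47.

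Of the pcgf genes, whose products pair with the ubiquitin ligases and set the variant, bmi1.S was higher and pcgf5.L lower. bmi1.S had 416, 524 and 598 counts in K02288/CHIR, against 165, 163 and 168 in DMSO, a log2 fold of 1.61 ± 0.20 (adjusted p = 0.000707). bmi1.L had 197, 255 and 327 in K02288/CHIR, against 173, 155 and 161 in DMSO, groups that did not overlap, at 0.64 ± 0.24. It missed the threshold by limma (adjusted p = 0.0569) and passed by edgeR (0.0476), by DESeq2 (0.0342), under upper quartile scaling (0.0238) and without K02288/CHIR library a (0.019). pcgf5.L, of a variant complex without cbx proteins, had 9.42, 8.0 and 0.954 counts in K02288/CHIR, against 76.2, 80.8 and 65.5 in DMSO. All treated libraries were lower, at a log2 fold of -3.72 ± 0.69 (adjusted p = 0.00368), or -2.95 without K02288/CHIR library c. Both homeologs of pcgf1 and of pcgf2 did not pass, with log2 folds from -0.30 to 0.33. Rows provisionally named pcgf3 and pcgf6, some of them higher, are described further on.

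Each of the ubiquitin ligase genes rose in its L homeolog. rnf2.L had 1289, 1776 and 1363 counts in K02288/CHIR, against 747, 745 and 834 in DMSO, and ring1.L 669, 768 and 674 in K02288/CHIR, against 409, 421 and 487 in DMSO. Their groups were apart, with log2 folds of 0.92 ± 0.16 (adjusted p = 0.00317) and 0.68 ± 0.15 (0.00846). rnf2.S with 1880.1, 1997 and 1623 counts in K02288/CHIR and 1663, 1355 and 1655 in DMSO overlapped, as did ring1.S with 1061, 716 and 738 in K02288/CHIR and 752, 550.0 and 563 in DMSO. Their log2 folds were 0.24 ± 0.15 (adjusted p = 0.209) and 0.42 ± 0.22 (0.138), and ring1.S passed with the replicate block (0.0358). Upper quartile scaling called both (adjusted p = 0.0271 and 0.0296).

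The polyhomeotic genes, whose SAM domains join complex 1 into larger assemblies, moved in opposite directions. phc1.L had 1036, 1114 and 974 counts in K02288/CHIR, against 537, 385 and 458 in DMSO, and phc1.S 972, 1115 and 724 in K02288/CHIR, against 398, 375 and 362 in DMSO. phc2.L had 444, 518 and 445 in K02288/CHIR, against 1029, 1014 and 1508 in DMSO. Treated libraries were all higher for phc1 and all lower for phc2.L, with log2 folds of 1.19 ± 0.17, 1.28 ± 0.19 and -1.31 ± 0.20 (adjusted p = 0.00128, 0.00157 and 0.00156). phc3.L did not pass at -0.088 ± 0.35.

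The remaining ARID genes encode DNA-binding proteins that are not subunits of remodelers. arid3a, a transcription factor gene, fell: arid3a.S had 11621, 3641 and 4987 counts in K02288/CHIR, against 34042, 23077 and 26417 in DMSO, and arid3a.L 7932, 2752 and 4053 in K02288/CHIR, against 16215, 9422 and 11867 in DMSO. K02288/CHIR library a lay nearest to the controls for both. The log2 folds were -2.21 ± 0.41 (adjusted p = 0.00383) and -1.45 ± 0.39 (0.0176), the second lost without K02288/CHIR library c (0.0591) or DMSO library a (0.06). The epidermal and other surface cell sums given above were likewise highest in library a among treated libraries, and their part was not tested. arid4a.S, of a SIN3 deacetylase complex, rose to 1263, 1739 and 1469.6 in K02288/CHIR, against 838, 922 and 823 in DMSO (log2 fold 0.78 ± 0.16, adjusted p = 0.00532). arid3b.L at -0.50 ± 0.23 missed the threshold (adjusted p = 0.106) and passed as lower with the replicate block (0.00888) and without K02288/CHIR library a (0.0249).

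arid4b.S, whose product is a partner of arid4a in SIN3 complexes, had 130.0, 121 and 851 counts in K02288/CHIR and 28.5, 57.0 and 195 in DMSO, with library c highest in each group and the groups overlapping. Its log2 fold was 1.78 ± 0.95 (adjusted p = 0.15), which was 0.00705 with the replicate block and 0.0487 by DESeq2. ino80c.S had its highest count in library b and its lowest in library c of both groups, with 133, 247 and 81.1 in K02288/CHIR and 118, 192 and 46.9 in DMSO, and did not pass without the block (adjusted p = 0.568) or with it (0.17).

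Whether L and S homeologs answered alike was tested on the log2 ratio of L to S per library, over all 5796 homeolog pairs in which both copies passed the mean filter. Of the 33 member pairs 12 differed in response by limma (adjusted p under 0.05), or 36.4%, against 38.0% of all pairs. In 14 pairs both homeologs were higher, in 3 both lower, in 9 only 1 of them passed, as higher, and in 7 neither passed. Of all 5796 pairs, 17.9% were higher in both, 18.8% lower in both, 18.7% higher in only 1, 17.5% lower in only 1 and 23.3% called in neither. No member pair had its homeologs called in opposite directions by limma, where 3.78% of all pairs were, so that 0 of 33 lies near that share. The count was also 0 by edgeR, by DESeq2 and at an unadjusted limma p under 0.05. Fitted log2 folds had opposite signs in 6 of the 33 pairs. Reads aligned to more than 1 place stand in a summary row and not under a gene. They made up 11.1% of reads in DMSO library a and 4.93% to 5.91% in the others, so that levels of near-identical copies are uncertain.

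The largest called differences toward L were those of smarca5 and cbx2. The ratio of smarca5.L to smarca5.S was 2.26, 2.12 and 2.08 in K02288/CHIR libraries and 0.747, 0.776 and 0.853 in DMSO libraries, a difference in log2 ratio of 1.45 ± 0.11 (adjusted p = 0.000398). For cbx2 the ratio was 5.91, 6.84 and 5.05 in K02288/CHIR and 2.53, 2.33 and 2.54 in DMSO, a difference of 1.26 ± 0.21 (0.00497). In both pairs the ratios of the groups did not overlap. rnf2 differed by 0.68 ± 0.16 (adjusted p = 0.0141), a call lost without K02288/CHIR library c (0.0504) or DMSO library a (0.0506). For arid3a, which fell in both copies, the difference of 0.75 ± 0.10 (adjusted p = 0.00245) went with log2 folds of -1.45 for L and -2.21 for S.

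Toward S the largest called difference was that of smarcc2, whose L to S ratio was 1.92, 1.90 and 1.52 in K02288/CHIR and 7.28, 6.27 and 4.70 in DMSO. The treated ratios were all lower, with a difference in log2 ratio of -1.76 ± 0.25 (adjusted p = 0.00259). cbx5, bmi1, arid2 and chd7 differed by -1.0 ± 0.12, -0.97 ± 0.22, -0.91 ± 0.12 and -0.91 ± 0.13 (adjusted p = 0.00174, 0.0136, 0.0024 and 0.00318). smarcb1 and smarcc1 differed by -0.68 ± 0.12 and -0.66 ± 0.15 (adjusted p = 0.00518 and 0.0143). The arid4a difference of -0.73 ± 0.24 (adjusted p = 0.0491) was lost without a filter on low values (0.0553) and without any 1 of K02288/CHIR b and c and DMSO a, b and c (adjusted p = 0.127, 0.121, 0.145, 0.0757 and 0.0946).

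**Figure D4:**
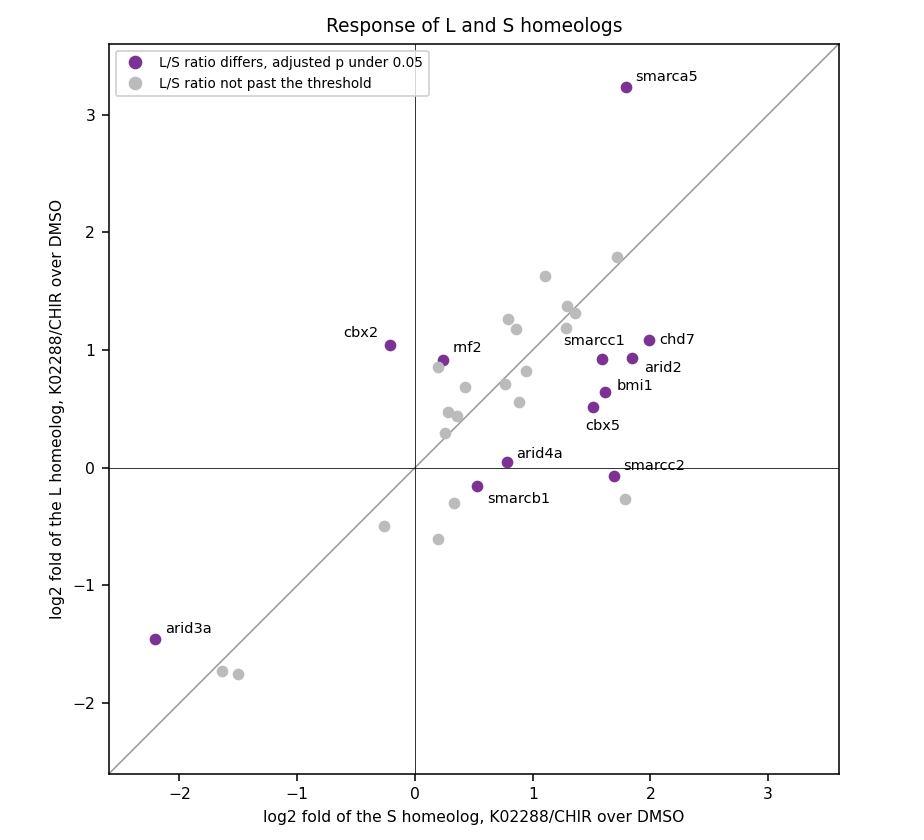
Log2 fold of the L homeolog against that of the S homeolog, K02288/CHIR over DMSO, for the 33 member pairs with both copies tested; the diagonal marks equal response and purple marks the 12 pairs whose L to S ratio differed (limma adjusted p under 0.05). smarca5 lies farthest above the diagonal and smarcc2 farthest below it among the purple pairs.

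Among the 21 pairs that missed the threshold, the interval of the difference held 0 for 18. It lay above 0 for smarce1 at 0.068 to 0.59, cbx1 at 0.060 to 0.99 and ino80e at 0.040 to 1.28. The difference in log2 ratio had a 95% interval of -0.26 to 0.16 for cbx3, -0.47 to 0.22 for chd8, -0.52 to 0.34 for chd6, -0.49 to 0.39 for mta2 and -0.56 to 0.37 for phc1. It was -0.44 to 0.59 for hells and -0.55 to 0.71 for smarca4. smarce1, smarcd1, chd1 and arid4b missed the threshold without the block (adjusted p = 0.0528, 0.11, 0.402 and 0.136) and passed with replicate letters as a block (0.0138, 0.0124, 0.0383 and 0.0207). smarce1 also passed without K02288/CHIR library a (0.0364).

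Ratios between related subunits were tested in the same fit for 20 pairs, and 12 of them differed between the groups. L and S rows of a symbol were summed where both were present. In 9 pairs at least 1 symbol had a single row, and for 7 of these the table holds further rows under a provisional name, which were left out of the sums. Over all 5816 ratios in that fit, 38.1% differed between the groups. The ratio of smarca4 to smarca2 was 20.7, 30.6 and 22.3 in K02288/CHIR libraries, against 3.92, 2.43 and 3.72 in DMSO libraries, a difference in log2 ratio of 2.88 ± 0.23 (adjusted p = 0.000426). All treated ratios lay above all control ratios. These are ratios of counts not corrected for transcript length, so that only their change between groups is compared, not which subunit is more abundant.

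phc1 rose against phc2 by 2.55 ± 0.21 (adjusted p = 0.000504) and cbx2 against cbx8 by 2.43 ± 0.32 (0.00223). Remodeler ATPases and BAF subunits differed by 0.81 ± 0.15 for chd7 to chd8 (0.00651), 1.23 ± 0.23 for smarcd1 to smarcd3 (0.00674) and 1.69 ± 0.36 for chd4 to chd3 (0.0107). phc1 to phc3 differed by 1.32 ± 0.32 (0.0166). The ratio to bmi1 was lower for pcgf1 at -0.94 ± 0.22 (adjusted p = 0.0155; 0.0558 without K02288/CHIR c and 0.0515 without DMSO a) and for pcgf2 at -1.18 ± 0.30 (0.0203; 0.0555 without DMSO b and 0.0674 without DMSO c). phc2 to phc3 at -1.22 ± 0.40 passed (adjusted p = 0.0466) and was lost with the replicate block (0.0508), without a filter (0.0538) and without K02288/CHIR a (0.064), b (0.0991) or c (0.118) or DMSO a (0.0857) or c (0.11).

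Of the 20 ratios, 8 did not pass. The ubiquitin ligases ring1 and rnf2 differed by 0.038 with a 95% interval of -0.32 to 0.40, and cbx1 to cbx3 by -0.15, with an interval of -0.38 to 0.081. smarcc1 to smarcc2 was at 0.69 ± 0.23 (adjusted p = 0.0542) and passed without DMSO library a (0.0223). chd7 to chd4, smarcd1 to smarcd2 and cbx3 to cbx5 (adjusted p = 0.0858, 0.106 and 0.0629) passed with the replicate block (0.0141, 0.033 and 0.0167). chd7 to chd4 also passed without K02288/CHIR library b (0.00997), and smarcd1 to smarcd2 and cbx3 to cbx5 without K02288/CHIR library a (0.0187 and 0.0154). The other 2 were mta1 to mta2 at -0.36 ± 0.14, with mta1.S alone for mta1, and cbx1 to cbx5 at 0.23 ± 0.12. With provisional rows added to the sums, mta1 to mta2 turned to 0.16 ± 0.14 (adjusted p = 0.387), still short of the threshold, and chd7 to chd4 passed at 0.75 ± 0.24 (0.0463). The calls of the other 5 ratios that take such rows held, with smarca4 to smarca2 at 2.70 ± 0.23 and chd4 to chd3 at 1.55 ± 0.27.

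**Figure D5:**
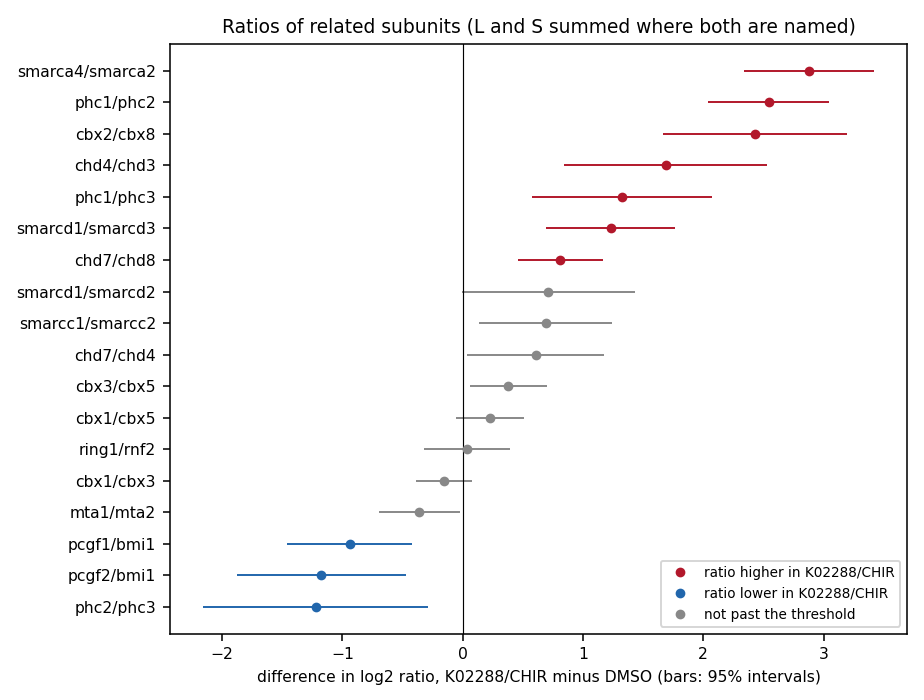
Difference between K02288/CHIR and DMSO in the log2 ratio of 18 of the 20 pairs of related subunits, L and S summed where both are named, with 95% intervals from limma; red and blue mark ratios higher and lower in K02288/CHIR (adjusted p under 0.05). Of the pairs shown, smarca4 to smarca2 (2.88) and phc1 to phc2 (2.55) lie farthest to the right.

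The other genes of the same complexes, taken from lists of their known subunits, were likewise more often higher than the 26.1% over all genes. They were less often lower than the 29.7% over all genes. Of 24 tested homeologs of further BAF and PBAF subunits 12 were higher and 3 lower, with a median log2 fold of 0.56. brd7.L, a bromodomain subunit of PBAF, rose by 1.22 ± 0.15 and bcl7a.L by 1.37 ± 0.15, while both actb homeologs, cytoplasmic actin shared with the cytoskeleton, fell, at -1.91 ± 0.15 for L and -1.10 ± 0.18 for S. Of 17 further NuRD homeologs 10 were higher and 2 lower (median 0.74), led by the histone-binding rbbp4.L at 1.62 ± 0.12 and rbbp4.S at 1.53 ± 0.13 and the deacetylase hdac1.L at 1.20 ± 0.12; sall4.L, a zinc finger factor that recruits NuRD, was lower at -1.83 ± 0.27, and hdac2.S at -1.30 ± 0.34, a call lost without DMSO library b (limma adjusted p = 0.0563) or c (0.0536). Among 16 homeologs of ISWI partners 11 were higher and 1 lower (median 0.78). They include baz1b.L at 1.40 ± 0.14 and baz1b.S at 1.29 ± 0.13, the smarca5 partner of the WICH complex, and baz1a.L at 0.82 ± 0.13, and c17orf49.S was the lower one at -0.77 ± 0.25. Its call was lost without K02288/CHIR a (limma adjusted p = 0.0714) or c (0.0789) or DMSO a (0.0855) or b (0.119), without a filter on low values (0.0501) and under upper quartile scaling (0.109).

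For INO80 and the related SWR1-type complexes, 24 of 42 homeologs were higher (57.1%) and 5 lower (11.9%), with a median of 0.53. Over all tested genes 26.1% were higher and 29.7% lower. nfrkb.L rose by 1.24 ± 0.12 and actr6.L by 1.67 ± 0.17, whereas the AAA+ ATPase ruvbl2, shared with other assembly pathways, fell, at -1.21 ± 0.13 for L and -1.37 ± 0.18 for S. Of 46 homeologs of further complex 1 partners 19 were higher (41.3%) and 7 lower (15.2%), with a median of 0.43. Their share called in either direction, 56.5%, lay near the 55.8% of all tested genes. Here the MBT-domain genes parted, sfmbt2.S at 3.31 ± 0.29 and sfmbt1.S at -2.63 ± 0.25, and scmh1.L was lower at -1.61 ± 0.24. In a list of other SNF2-type helicases 7 of 17 were higher and 3 lower (median 0.36). The share called, 58.8%, was likewise near that of all tested genes. Among the higher were ercc6.L, of transcription-coupled repair, at 1.13 ± 0.12, shprh.S at 1.35 ± 0.22 and smarcad1.S at 0.97 ± 0.18. The lower included smarcal1.L at -1.19 ± 0.25 and hltf.L at -0.58 ± 0.15 (limma adjusted p = 0.0517 under upper quartile scaling).

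Polycomb complex 2, which writes the histone H3 methylation read by the Polycomb cbx proteins, was higher in 16 of 20 tested homeologs, and the other 4 did not pass (median 1.04). mtf2.S, an accessory subunit that recruits the complex to CpG-rich DNA, had 3462, 3559 and 3313 counts in K02288/CHIR, against 1350.0, 1266 and 1308 in DMSO, a log2 fold of 1.40 ± 0.11 (adjusted p = 0.000161), beside the rbbp4 pair given with NuRD, which complex 2 shares. hdac1, hdac2, rbbp4, rbbp7, srcap and ep400 stand in more than 1 of these lists. Over the members themselves, the remodeler classes had 26 of 46 tested homeologs higher (56.5%) and 3 lower (6.5%), with a median of 0.74. The complex 1 classes had 6 of 22 higher (27.3%) and 5 lower (22.7%), with a median of 0.24. Over all tested genes 26.1% were higher and 29.7% lower, so that the higher share of the complex 1 classes lay near that of all genes. The difference between the remodeler and complex 1 classes was not tested.

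A further 21 rows of the table carry a member symbol only as a provisional name and so fall outside the choice by symbol. Of the 17 tested, 6 were higher (35.3%) and 3 lower (17.6%), beside 26.1% and 29.7% over all tested genes. The pair of rows provisionally named arid1a had 5111, 5131 and 3665 counts in K02288/CHIR, against 3160.1, 1867 and 2509.8 in DMSO (log2 fold 0.90 ± 0.23, adjusted p = 0.0141), and 3724, 2659.9 and 2295 in K02288/CHIR, against 2259, 1146 and 1592 in DMSO (0.82 ± 0.29, 0.0444). The second call was lost by edgeR (adjusted p = 0.0567) and without K02288/CHIR a (0.0952), b (0.0837) or c (0.0517) or DMSO b (0.121) or c (0.102). A row provisionally named smarca2 was lower at -1.03 ± 0.17 (adjusted p = 0.00205), with 441, 332 and 359.5 in K02288/CHIR, against 774, 793 and 729 in DMSO. Both rows named arid3a that were tested fell, at -3.89 ± 0.57 and -5.14 ± 0.40. The first had 727, 128 and 316 counts in K02288/CHIR, with library a highest, against 5688, 3971 and 4260 in DMSO. The second had 5.65, 2.67 and 3.81 in K02288/CHIR, near the floor, against 180, 133 and 210 in DMSO, so that the size of its fold is uncertain. A row named mta1 was higher at 1.25 ± 0.15 (adjusted p = 0.000699), and a row named chd4 did not pass at -0.14 ± 0.22 (0.615). Nor did the rows named chd3, at -0.67 ± 0.30 and -0.53 ± 0.41 (limma adjusted p = 0.0968 and 0.311). Rows named pcgf3 and pcgf6 were higher at 1.19 ± 0.33 and 0.59 ± 0.17 (limma adjusted p = 0.0185 and 0.0238). A row named hells was higher at 1.09 ± 0.39 (0.0483, and 0.0603 with the replicate block). Each of the pcgf3, pcgf6 and hells calls was lost in some fits with a library left out. Other rows named pcgf3 did not pass, at 0.56 ± 0.24 and -0.30 ± 0.18. A row named smarcd3 was higher in all treated libraries, at 1.53 ± 0.58, and missed the threshold (limma adjusted p = 0.0593). It passed with the replicate block (0.0203), by DESeq2 (0.0433) and under upper quartile scaling (0.0383). Another row named smarcd3 did not pass at -0.33 ± 0.53 (limma adjusted p = 0.624). These rows were singled out after their values were seen.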

How the data were processed

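Total RNA of Xenopus laevis animal pole explants was sequenced in 6 libraries, 3 of K02288/CHIR and 3 of DMSO explants. Per the file headers, the deposited table holds 1 column of normalized counts per library, a signal that the authors obtained by dividing read counts by size factors; the tool was DESeq, per the submitters' processing notes, which give no version. No aligner, counter, strand setting, build or annotation is named (not given in the sources used here), so overlapping and antisense genes cannot be told apart. Of 184429 values above 0, 100% came out as whole reads (tolerance 0.01 reads), and edgeR 4.0.16 (quasi-likelihood) and DESeq2 1.42.0 were run on the recovered reads as alternatives. On these reads, edgeR called 5953 genes higher and 6437 lower. The authors' own fold changes and p-values were not used.

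In the table, 5 summary rows that name no gene were left out of sizes and tests. Reads outside genes made up 10.9% to 12.8% of a library's total, multiply aligned reads 4.93% to 11.1%, and ambiguous ones 0.439% to 0.716%. Another row with a split gene name was mended. Columns carry the letters a to c and titles numbers, so columns were assigned to groups only. Same-letter libraries deviated together from their group means over 22932 genes (r = 0.326 for a, 0.402 for b and 0.319 for c), so the letters were taken to pair the libraries. Other pairings gave -0.228 to -0.0905. These negative values add no separate evidence, because deviations from a group mean cancel out within the group for each gene. The main test left the pairing out, and a fit with the letters as a block was an alternative. Blocked values are printed where they change a call of a member or ratio.

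The main test was limma 3.58.1 (R 4.3.3), with its trend option, on log2(normalized count + 1) of all genes with a mean of at least 10, two-sided, with Benjamini-Hochberg adjustment over all genes tested. Folds on this scale understate changes of low genes. Ratios of L to S and of 26 pairs of related subunits, 20 of which passed the same mean filter, were fitted together in the same way, with the mean log2 level as trend. A symbol without a named row failed that filter whatever its level. Pairs with arid1a, present only under provisional names, or with mta3, which has no row, were therefore not fitted. On simulated data with 50% of genes changed, limma called 50.4% of 5544 genes changed by 1 in log2 and 87.8% of 5564 changed by 2; with 200 genes changed it called 1.18% of 85 and 42.9% of 105. For ratios with 50% changed the shares were 33.2% of 1718 and 81.3% of 1626. Alternatives were the pseudocount, mean filter, scaling, replicate block and each library left out. Figures were drawn with matplotlib 3.10.9 in Python 3.11.15.

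The members and lists were chosen with earlier results of these data known. In each class, the up to 4 homeologs with the smallest adjusted p in each direction, and fixed symbols of interest, are given by library. In each list of other genes, at most 3 are named by smallest adjusted p and at most 2 in the other direction. A gene counted among the members, and the 2 ratios that hold it, are not reported here. No sequences are shown.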

Additional observations from a re-analysis of the deposited data

How the results depend on the processing

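Over the other scalings, filters, pseudocounts, tests and left-out libraries, the members called higher numbered 36 to 49 (39 in the fit reported) and those called lower 7 to 12 (10 in the fit reported). The homeolog ratios called numbered 10 to 16 (12) and the paralog ratios called 10 to 14 (12). With the replicate block, 42 members were higher and 11 lower, keeping all 49 calls, and 6522 of all genes were higher and 7276 lower. Under upper quartile scaling the median over all genes was a log2 fold of 0.22 (0.0051 in the fit reported) and that over the members 0.69 (0.48); this setting kept all 49 calls and added 10, all higher (arid1b.L, bmi1.L, chd1.L, chd9.L, ino80.L, ino80d.L, ino80d.S, mta1.S, ring1.S and rnf2.S). Over all genes it called 7516 higher and 5930 lower, so that 55.9% of calls were higher, against 46.8% in the fit reported (5995 higher and 6811 lower). A mean of at least 50 left 75 members tested, so that both cbx8 homeologs and pcgf5.L were not tested.

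Signs turned only for values past the threshold in neither fit, and the cause was not tested. Upper quartile scaling turned the log2 folds of cbx2.S (0.0025), chd2.L (0.20), phc3.L (0.12), smarcb1.L (0.060), smarcc2.L (0.14) and smarcd3.S (0.064), and of a row provisionally named chd4 (0.074). With 1 library left out at a time, log2 folds ran over -0.045 to 0.17 for arid4a.L, -0.092 to 0.087 for chd2.L, -0.20 to 0.34 for chd5.S, -0.11 to 0.89 for ino80c.S, -0.30 to 0.10 for phc3.L, -0.18 to 0.079 for smarcc2.L and -0.58 to 0.13 for a row provisionally named smarcd3. Differences in log2 ratio of L to S ran over -0.071 to 0.45 for arid1b, -0.68 to 0.0076 for cbx8, -0.062 to 0.27 for hells, -0.0045 to 0.19 for ino80d, -0.16 to 0.15 for mta2, -0.088 to 0.20 for pcgf1 and -0.16 to 0.37 for smarca4, and that of ring1 to rnf2 over -0.076 to 0.16. With provisional rows added to the sums, 13 ratios between related subunits were called, and mta1 to mta2 turned to 0.16. This setting and the alternatives for genes that are not members were chosen after seeing the data. With 3 libraries a group, changes of 1 in log2 are often missed at the simulated error, and members under a mean of 10 were not tested.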
